A study of Homo sapiens with 6 samples.

Results

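Abundance of 9 transcription factors tied to the neuroendocrine (NE) lineage was examined in the neuroendocrine prostate cancer (NEPC) line NCI-H660 (H660) with and without silencing of MUC1. The factors were INSM1, NKX2-1, PROX1, FOXA2, ONECUT2, POU3F2, POU3F3, NEUROD1 and REST. They were matched by symbol among 28008 gene symbols in the deposited count table, and all 9 were also found in the deposited table of length-scaled abundance (TPM, which corrects counts for the length of each gene and brings libraries to one total). Both groups were H660 cells that carried a puromycin-selected tet vector, from which a short hairpin RNA (shRNA) that targets MUC1 can be induced. The DOX-negative group (n = 3 libraries) received the DMSO vehicle and the DOX-positive group (n = 3 libraries) received doxycycline (DOX), which switches on the shRNA, at 500 ng/ml for a week. H660 is 1 cell line and 1 shRNA was used in it, and DOX-treated cells with a control shRNA were not analysed here, so an effect of DOX itself cannot be told apart from that of the shRNA. In these bulk libraries fewer cells of a type and less RNA per cell cannot be told apart either.

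Several of these factors act together in NE tissues and tumors. INSM1 is a zinc finger repressor that is used as a marker of NE differentiation. NKX2-1 specifies lung and thyroid and marks small cell carcinomas, FOXA2 is a pioneer factor of endodermal organs, and ONECUT2 and PROX1 are homeodomain factors of liver, pancreas and neural development. POU3F2 (BRN2) and POU3F3 (BRN1) are neural POU domain paralogs, and NEUROD1 is a basic helix-loop-helix activator of neuronal and endocrine genes. REST works in the opposite direction: it binds RE1 elements in neuronal genes and recruits corepressors that keep them off outside the nervous system. In NEPC, loss of luminal identity is typically accompanied by gain of such factors and by low REST activity.

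Depth was 47620696 to 74061121 counts per library, and 17026 genes passed the filter on low counts and were tested. The label of the line was checked against cell type markers. All 15 NE markers had a mean of at least 1 TPM. Their summed level was 433 to 611 TPM in DOX-negative and 456 to 652 TPM in DOX-positive libraries. UCHL1 (mean 241 TPM) and CEACAM5 (mean 111 TPM) were the largest parts of this sum, so it says little about the other markers. Luminal prostate markers were nearly absent: KLK2 had at most 1 count in any library, KLK3 had 0 in all 6, and KRT18, a general epithelial keratin, was the sole luminal marker of 11 at 1 TPM or more. The targeted gene was measured next. MUC1 was 88.2, 90.2 and 79.6 CPM (counts corrected for library size) in DOX-negative replicates 1, 2 and 3, and 36.7, 37.2 and 29.9 CPM in DOX-positive replicates 1, 2 and 3, without overlap. MUC1 fell by 1.32 on the log2 scale (standard error, SE, 0.096, edgeR adjusted p = 0.000173).

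The bases just upstream of NKX2-1, SFTPA1 and SFTPA2 are shown because these genes were lower with DOX. NKX2-1 is known to bind surfactant promoters, but its part in the change of SFTPA1 and SFTPA2 was not tested. Of other surfactant genes, SFTPB changed by -0.19 on the log2 scale (edgeR adjusted p = 0.254) and SFTPD by 0.088 (adjusted p = 0.837). The sparsely counted SFTPC changed by -0.86 (adjusted p = 0.211). RefSeq (GRCh38.p14) upstream windows were found for 6 of the 9 factors. Each window shown was cut at the first annotated exonic base of its own gene, and exons of other genes were not removed. For NKX2-1 only the window at the outer end of its RefSeq span was searched. It lies within the annotated span of the antisense transcript NKX2-1-AS1. Capitals mark matches, on either strand, to CTCAAG, a core of NKX2-1 sites, and to TGTTTAC, a core of FOXA sites, the latter appearing as GTAAACA.
NKX2-1, chr14:36520287-36520482, minus strand: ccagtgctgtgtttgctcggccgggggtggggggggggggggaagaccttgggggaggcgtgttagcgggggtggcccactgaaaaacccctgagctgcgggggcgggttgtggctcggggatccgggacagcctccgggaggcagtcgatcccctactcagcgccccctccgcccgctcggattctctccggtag
SFTPA1, chr10:79610689-79610938, plus strand: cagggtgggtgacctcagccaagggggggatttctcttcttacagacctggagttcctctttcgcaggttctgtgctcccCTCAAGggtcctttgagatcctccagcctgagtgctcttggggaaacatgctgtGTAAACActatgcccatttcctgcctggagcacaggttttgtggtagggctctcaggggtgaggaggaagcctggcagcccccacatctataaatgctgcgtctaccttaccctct
SFTPA2, chr10:79560408-79560657, minus strand: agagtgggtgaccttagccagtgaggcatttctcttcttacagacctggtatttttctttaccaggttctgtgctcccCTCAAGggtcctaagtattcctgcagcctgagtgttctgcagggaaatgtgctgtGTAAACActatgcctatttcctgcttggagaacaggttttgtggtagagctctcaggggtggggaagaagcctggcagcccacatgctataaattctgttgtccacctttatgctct
Both surfactant windows held 1 match to each motif, in the same order along the window. SFTPA1 and SFTPA2 are near-identical copies with similar windows, so these matches are not independent of each other. Over all 35116 RefSeq windows of the same 250 bases, 10.4% held CTCAAG and 2.98% held TGTTTAC, with no overlap between these motifs here. The 196 bases before NKX2-1 held neither, nor the E-box CAGNTG or the left part of the RE1 element, TTCAGCACC, which were found in 36% and 0.219% of windows of that length. In the surfactant windows the last 2 were also not found (42.5% and 0.288% of all windows of 250 bases held them). A match is a run of letters and not a measured binding site.

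Of the 9 factors, 8 were tested and 3 were called at an adjusted p under 0.05, and all 3 were lower with DOX. They were INSM1, PROX1 and NKX2-1. Over all genes tested, 4.87% were called, 1.96% as lower and 2.91% as higher. The median log2 fold change of the 8 factors was -0.35, beside 0.00034 for all 17026 genes, whose interquartile range was -0.13 to 0.13. The factors were chosen with earlier results of these data known, so this contrast is a description and not a test. POU3F3 was not tested because it had no counts. Of the 8, 5 had a negative fold change, as had 49.9% of all tested genes, and 3 did not overlap between the groups, all lower, beside 28.1% of all tested genes (13.3% as lower and 14.8% as higher). The direction was mixed outside the 3 called factors, with FOXA2 and POU3F2 on the negative side and ONECUT2, REST and NEUROD1 slightly on the positive side, none of them past the threshold.

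**Figure D1:**
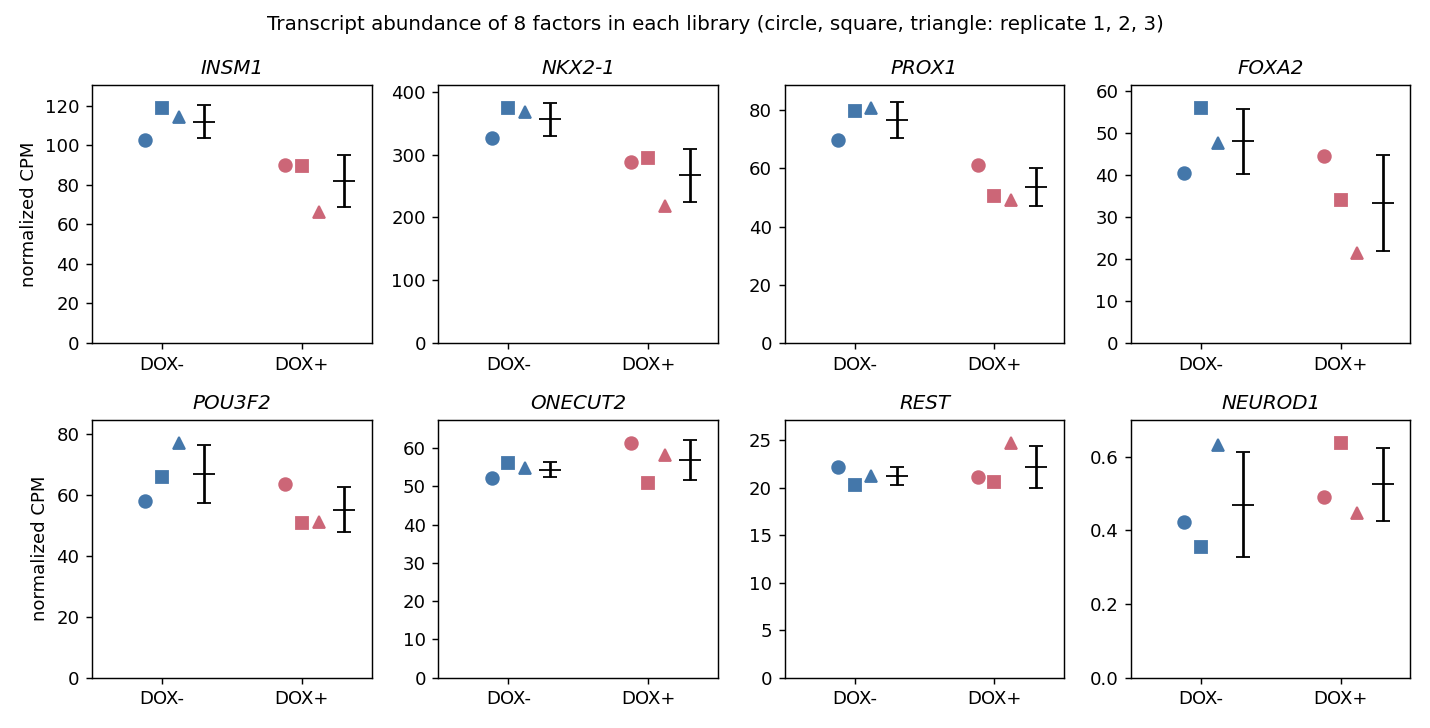
Normalized CPM (y axis, from 0, scaled per gene) of 8 factors in the 3 DOX-negative and 3 DOX-positive libraries (symbols, replicates 1 to 3), with the mean and SD of each group beside the points. All 3 DOX-positive libraries lie below all 3 DOX-negative libraries for INSM1, NKX2-1 and PROX1, and the groups overlap for the other 5.

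INSM1 (chr20:20368104-20370949, GRCh38.p14) was lower with DOX. Its abundance was 103, 119 and 114 CPM in DOX-negative replicates 1, 2 and 3 and 89.7, 89.3 and 66.4 CPM in DOX-positive replicates 1, 2 and 3. The groups did not overlap, and DOX-positive replicate 3 stood below the other two. The means were 112 ± 8.21 and 81.8 ± 13.3 CPM (SD, n = 3), a change of -26.9%. INSM1 fell by 0.45 on the log2 scale (SE 0.11, 95% interval -0.69 to -0.21, edgeR adjusted p = 0.0389). An exact two-sided permutation test gave p = 0.10, the smallest that 3 against 3 libraries allow. The call rested in part on single libraries: without DOX-positive replicate 3 the change was -0.32 (adjusted p = 0.0728). INSM1 was also not called without DOX-negative replicate 2 (-0.41, adjusted p = 0.152), DOX-negative replicate 3 (-0.44, adjusted p = 0.167) or DOX-positive replicate 2 (-0.52, adjusted p = 0.0699). Over all genes 127 and 58 were called without DOX-negative replicates 2 and 3, beside 829 in the full fit.

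NKX2-1 (chr14:36516397-36520232) was the most abundant of the factors and moved much as INSM1 did. It was 326, 374 and 369 CPM without DOX and 289, 294 and 219 CPM with DOX, in replicate order. The groups did not overlap, and again the lowest value was that of DOX-positive replicate 3. The means were 356 ± 26.0 and 268 ± 42.1 CPM (SD, n = 3). NKX2-1 fell by 0.41 on the log2 scale (SE 0.11, 95% interval -0.65 to -0.18, edgeR adjusted p = 0.0494), just inside the threshold, and 6.48% of all tested genes had a log2 fold change at or below this one. Without DOX-positive replicate 3 the value was -0.29 (adjusted p = 0.105). The call was also lost without DOX-negative replicate 2 (-0.38, adjusted p = 0.177), DOX-negative replicate 3 (-0.39, adjusted p = 0.196) or DOX-positive replicate 2 (-0.48, adjusted p = 0.0583).

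PROX1 (chr1:213983151-214041510) had the smallest adjusted p of the factors. It was 69.6, 79.7 and 80.6 CPM without DOX, and 61.0, 50.5 and 49.1 CPM with it. The groups did not overlap, and here DOX-positive replicates 2 and 3 were both low. PROX1 fell from 76.7 ± 6.10 to 53.5 ± 6.52 CPM (SD, n = 3), by 0.52 on the log2 scale (SE 0.097, 95% interval -0.73 to -0.31, edgeR adjusted p = 0.0142). The call was kept without DOX-positive replicate 3 (-0.46, adjusted p = 0.0382) and was lost without DOX-negative replicate 2 (-0.49, adjusted p = 0.0764) or DOX-negative replicate 3 (-0.48, adjusted p = 0.0963). The antisense transcript PROX1-AS1, which overlaps PROX1 and was sparsely counted, changed by -0.32 (SE 0.16, adjusted p = 0.285).

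These calls depended on the unit. In each library, TPM differs from CPM by the length of the gene and by a factor common to all genes. Overlaps seen in TPM alone are therefore a shared shift of scale and not a separate result for each gene. In TPM, DOX-positive replicate 1 overlapped the DOX-negative libraries for all 3 genes, at 22.1 TPM against 19.3 to 25.9 TPM for INSM1, 81.0 against 70.7 to 92.8 TPM for NKX2-1 and 4.64 against 4.20 to 5.37 TPM for PROX1. When log2 TPM was tested with limma in 3 forms, 0 factors were called and 1, 1 and 0 had an unadjusted p under 0.05, although the direction of INSM1, NKX2-1 and PROX1 did not turn. The small nuclear RNA RN7SK took 21.2% to 27.1% of all TPM in a library. Its share was lowest in DOX-negative replicate 3, where the keratin KRT18 was 203 TPM and 614 CPM. The share was highest in DOX-positive replicate 1, where KRT18 was 306 TPM and 633 CPM. The part of RN7SK in the difference between the units was not tested.

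**Figure D2:**
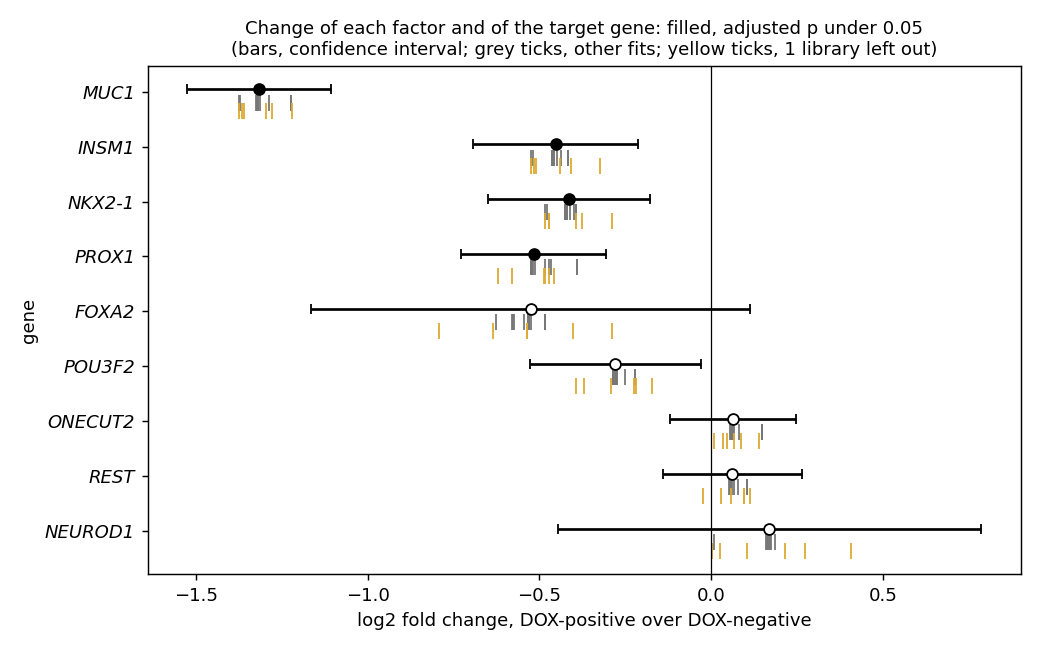
Log2 fold change (x axis, DOX-positive over DOX-negative) of MUC1 and of 8 factors (y axis), with 95% intervals and filled points for an adjusted p under 0.05; grey ticks are other fits and yellow ticks are fits without 1 library. INSM1, NKX2-1, PROX1, FOXA2 and POU3F2 stay below 0 in every fit drawn, while REST crosses 0 without DOX-positive replicate 3.

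FOXA2 (chr20:22580998-22585490) had as large a mean difference as PROX1 but a far larger spread. Its abundance was 40.4, 55.8 and 47.7 CPM without DOX and 44.5, 34.0 and 21.5 CPM with DOX. DOX-positive replicate 1 lay inside the range of the DOX-negative libraries, and DOX-positive replicate 3 was the lowest of all 6. The difference was -0.53 on the log2 scale (SE 0.27, 95% interval -1.17 to 0.11, edgeR adjusted p = 0.323). It passed the threshold in 1 of 18 alternatives, without DOX-positive replicate 1 (-0.79, adjusted p = 0.0372), and was -0.29 (adjusted p = 0.308) without DOX-positive replicate 3. LINC00261, a long noncoding RNA gene beside FOXA2, was 6.96, 9.96 and 9.16 CPM without DOX and 5.56, 3.36 and 2.35 CPM with DOX, and did not pass the threshold (-1.20, SE 0.29, adjusted p = 0.0624). ONECUT2 (chr18:57435374-57491298) was at similar levels in the 2 groups, with 52.2, 56.1 and 54.9 CPM without DOX and 61.3, 50.9 and 58.3 CPM with DOX. The DOX-positive libraries spanned the DOX-negative ones, and the log2 difference of 0.064 (SE 0.084, edgeR adjusted p = 0.719) had a 95% interval of -0.12 to 0.25.

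The POU domain paralogs differed in whether they were detected at all. POU3F2 (chr6:98834574-98839458) was 58.1, 65.9 and 77.0 CPM without DOX, and 63.7, 50.8 and 51.0 CPM with it. DOX-positive replicate 1 was above DOX-negative replicate 1, so the groups overlapped. The difference was -0.28 (SE 0.11, 95% interval -0.53 to -0.029), with an unadjusted edgeR p of 0.0315 that became 0.186 after adjustment. Before adjustment 21.1% of all genes had a p under 0.05. POU3F3 (chr2:104853276-104927773) had 0 counts in all 6 libraries, and a floor of 3 counts per library allows a level of at most 0.0397 to 0.063 CPM for counting error. The planned ratio of POU3F3 to POU3F2 therefore could not be computed. Of the other relatives of this family, POU3F4 also had 0 counts in all 6 libraries, and POU3F1 was 2.29 to 3.75 CPM over all 6 (log2 difference -0.035, SE 0.19, adjusted p = 0.942, turning positive without replicate 1 of either group).

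NEUROD1 (chr2:181668295-181680517) was close to the limit of detection. It had 27, 22 and 30 counts without DOX and 37, 35 and 33 counts with DOX, or 0.0297 to 0.0461 TPM. The log2 difference was 0.17 with a 95% interval of -0.45 to 0.79 (SE 0.28, edgeR adjusted p = 0.785), so that neither a rise nor a fall of moderate size was detectable at this depth. By contrast NEUROG3, the related factor that lies upstream of NEUROD1 in endocrine pancreas, was abundant, with a mean of 51.7 TPM. NEUROG3 was 127, 158 and 129 CPM without DOX and 81.5, 80.9 and 46.6 CPM with DOX. The groups did not overlap, but the difference of -0.98 (SE 0.22) had an edgeR adjusted p of 0.0561. It passed the threshold in 10 of 18 alternatives, with adjusted p values from 0.00284 to 0.571. NEUROG3 was singled out after its values were seen.

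Levels of the factors were then compared per length, in TPM. The order of mean TPM over the 6 libraries was NKX2-1 (70.8 TPM), INSM1 (19.4), FOXA2 (8.95), POU3F2 (8.27), PROX1 (4.03), ONECUT2 (1.85), REST (1.57), NEUROD1 (0.037) and POU3F3 (0). NKX2-1 stood at the percentile 97.6 of tested genes by mean TPM, INSM1 at 89.5, ONECUT2 at 39.9 and NEUROD1 at 2.10. FOXA2 and POU3F2 could not be ordered, since FOXA2 was the higher in 4 of 6 libraries and their ranges overlapped within both groups. ONECUT2 exceeded REST in 6 of 6 libraries, by ratios of 1.07 to 1.32, but the ranges of these genes over the libraries of a group overlapped. The other neighbours in the order were separate in every library, with the smallest such ratio, 1.58, between PROX1 and ONECUT2.

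**Figure D3:**
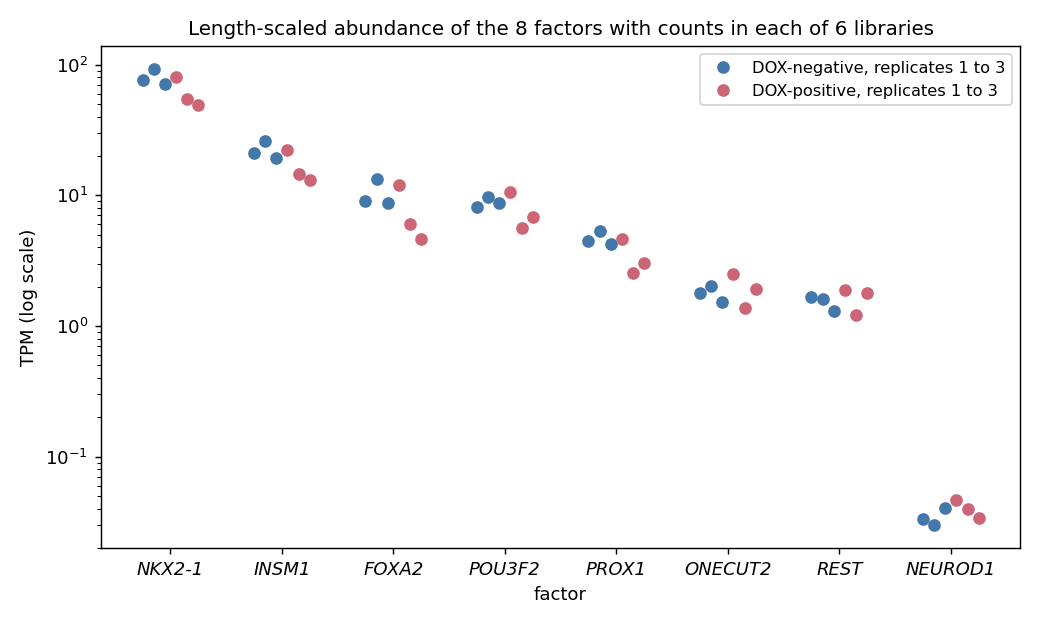
TPM (y axis, log scale) of the 8 factors with counts (x axis, in order of mean TPM) in 3 DOX-negative (blue) and 3 DOX-positive (red) libraries. NKX2-1 lies at 49.4 to 92.8 TPM and NEUROD1 below 0.05 TPM, and the first DOX-positive library is the highest of its group for all 8. That order is not particular to the factors: KRT18 was 306, 233 and 260 TPM in DOX-positive replicates 1, 2 and 3. In CPM the second DOX-positive library was the highest for NKX2-1 and NEUROD1, and the third for REST.

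Within a library, INSM1 and NKX2-1 kept nearly the same ratio. NKX2-1 over INSM1 in TPM was 3.62, 3.59 and 3.66 without DOX and 3.67, 3.75 and 3.75 with DOX. This ratio, looked at after the values were seen, spanned 3.59 to 3.75. It was slightly higher with DOX, without overlap (exact two-sided permutation p = 0.10, the smallest possible). NKX2-1 itself spanned 49.4 to 92.8 TPM, which includes the scale of each library, and 219 to 374 CPM. When genes were ranked by the root mean square distance of their log2 CPM from INSM1, each centred on its mean of 6 libraries, NKX2-1 was the second nearest of 14587 genes (distance 0.0243). The nearest was PPARGC1B, a transcriptional coactivator (0.0242, log2 fold change -0.47, edgeR adjusted p = 0.0459), and the next was PRLHR, a neuropeptide receptor (0.0309, -0.47, adjusted p = 0.032). Nearest to POU3F2 were TMEM65 (distance 0.0321), GAS2L3 (0.0389) and DKFZP586I1420 (0.0404), and nearest to REST were NMNAT1 (0.019), MYL12A (0.0262) and MAP2 (0.0263), of which none passed the threshold. These distances describe 6 libraries of 2 groups and carry no test.

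**Figure D4:**
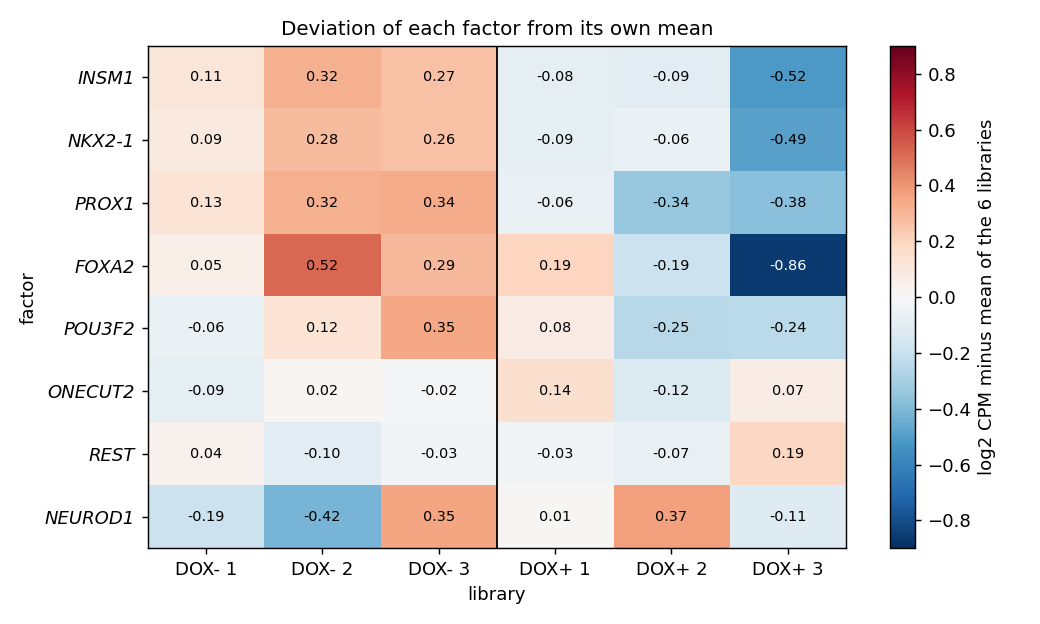
Log2 CPM of each factor (rows) minus its mean over the 6 libraries (columns), as color and number; the vertical line parts DOX-negative from DOX-positive libraries. DOX-positive replicate 3 holds the lowest value of INSM1 (-0.52), NKX2-1 (-0.49), PROX1 (-0.38) and FOXA2 (-0.86), and the highest of REST (0.19).

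REST (chr4:56907900-56935844) was low and did not pass the threshold in any fit. It was 22.2, 20.3 and 21.3 CPM without DOX and 21.2, 20.6 and 24.7 CPM with DOX. The groups overlapped, with DOX-positive replicate 3 highest. The log2 difference was 0.062 (SE 0.093, 95% interval -0.14 to 0.27, edgeR adjusted p = 0.76), and it turned to -0.023 without that library. INSM1 exceeded REST by 12.8, 16.1 and 14.8 times in TPM without DOX and by 11.7, 11.9 and 7.42 times with DOX. The log2 ratio was 3.86 ± 0.17 against 3.34 ± 0.39 (SD, n = 3), a difference of -0.52 without overlap (exact two-sided permutation p = 0.10, the smallest possible). Without DOX-positive replicate 3 the difference was -0.30.

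Partners and targets of REST were examined next. Among 26 tested cofactors and regulators of REST, 1 was called, a share near the 4.87% called over all genes, and the median log2 fold change was -0.015. Over the alternatives 0 to 2 of them were called. This gene was RCOR2, a paralog of the CoREST corepressor, at 6.51, 8.20 and 7.62 CPM without DOX and 5.79, 5.00 and 3.89 CPM with DOX. RCOR2 fell by 0.60 on the log2 scale (SE 0.15, edgeR adjusted p = 0.0416), and the groups did not overlap. SRRM4, the splicing factor that makes a neural form of REST lacking most of its repressor function, had 1 count in DOX-negative replicate 1 and 0 in every other library. Of 47 tested neuronal genes that REST is known to repress, 4 were higher, 1 was lower and the median was 0.034. The higher ones were SCN3B, a sodium channel subunit (0.65, SE 0.14, edgeR adjusted p = 0.0231), NEFL, a neurofilament (0.57, SE 0.13, adjusted p = 0.0329), RAB3C, a vesicle GTPase (0.50, SE 0.11, adjusted p = 0.0304), and CHRM4, a muscarinic receptor named after its value was seen (0.45, SE 0.11, adjusted p = 0.0345). GLRA1, a glycine receptor subunit, fell by 0.75 (SE 0.18, adjusted p = 0.0325). The share of these genes called was 5 of 47, beside 4.87% over all genes, and ranged from 0 to 7 genes over the alternatives. Calls outside the 9 factors were also sensitive to single libraries: of 27 called genes named here besides MUC1, 24 were not called without DOX-negative replicate 2 and 25 without DOX-negative replicate 3, and SFTPA1 and TSHR alone were called without each library in turn.

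Lung and thyroid genes known as targets of NKX2-1 were compared as well. Of 22 such genes 16 were tested, 4 were called lower and 1 higher, with a median log2 fold change of -0.12. The 4 lower ones were TSHR, SFTPA1, the near-identical SFTPA2, and SFTA3. SFTA3 overlaps NKX2-1 and is also in the list of neighbouring transcripts, so the 4 may not be independent of each other. Over all tested genes 1.96% were called lower and 2.91% higher, and 0 to 6 genes of this list were called over the alternatives. SFTPA1, which encodes a surfactant protein of the lung, was abundant in these prostate-derived cells, at 55.3 TPM on average. It was 241, 338 and 301 CPM without DOX and 151, 164 and 123 CPM with DOX, so that all DOX-positive libraries lay well below all DOX-negative ones. SFTPA1 fell by 1.01 on the log2 scale (SE 0.13, edgeR adjusted p = 0.00287) and was called in 17 of 18 alternatives. Its near-identical copy SFTPA2, named after its value was seen, was 95.0, 109 and 92.3 CPM against 71.6, 81.8 and 77.1 CPM, and fell by 0.36 (SE 0.086, adjusted p = 0.033). Reads shared by the copies may have been split between them by the counting, which makes the separate values uncertain. SFTPA1 over SFTPA2 in TPM was 2.76, 3.36 and 3.53 without DOX and 2.28, 2.17 and 1.73 with DOX, and SFTPA1 over NKX2-1 was 0.821, 1.00 and 0.907 without and 0.579, 0.618 and 0.623 with DOX. Neither ratio overlapped between the groups (exact two-sided permutation p = 0.10 for each, both chosen after the values were seen).

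The remaining called targets were of lower abundance or lay at the NKX2-1 locus. TSHR, the thyrotropin receptor, had 98, 127 and 78 counts without DOX and 42, 40 and 34 with DOX, and fell by 1.60 (SE 0.22, edgeR adjusted p = 0.0035). It overlaps CEP128, which was counted more deeply. ROR1, a receptor tyrosine kinase, rose from 2.43 ± 0.18 to 3.95 ± 0.52 CPM (SD, n = 3), by 0.70 (SE 0.14, adjusted p = 0.0192). SFTA3 (chr14:36473288-36519556), whose annotated span overlaps NKX2-1, was 244, 273 and 279 CPM without DOX and 219, 181 and 171 CPM with DOX. It fell by 0.48 (SE 0.097, adjusted p = 0.0197). The antisense transcript NKX2-1-AS1 (chr14:36519278-36523016) was 20.1, 24.0 and 21.9 CPM against 17.0, 17.3 and 12.4 CPM and fell by 0.50 (SE 0.13, adjusted p = 0.0438). Its exons share 402 bases with the 3165 exonic bases of NKX2-1 in GENCODE v29. The library kit is stranded by its name, but whether the counting used strand is not given in the sources used here, so the values of these overlapping transcripts may not be independent of each other. Of 7 tested transcripts that neighbour or are antisense to the factors, these 2 were called and the median was -0.32, with 0 to 3 called over the alternatives.

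Paralogs and other lineage factors showed no common direction. Of 13 close relatives of the factors 8 were tested, with 4 positive and 4 negative values and 0 to 2 called over the alternatives. Their log2 fold changes ran from -1.62 to 0.76, with a median of 0.004. INSM2, the paralog of INSM1, was the one called, and in the other direction: it was 2.74, 2.86 and 2.52 CPM without DOX and 4.23, 5.04 and 4.56 CPM with DOX, and rose by 0.76 (SE 0.13, edgeR adjusted p = 0.00961). FOXA1, the luminal pioneer factor related to FOXA2, was abundant at 31.6 TPM on average and was 188 ± 3.91 against 194 ± 1.19 CPM (SD, n = 3), a log2 difference of 0.043 (SE 0.065, adjusted p = 0.76). Of 38 other tested neural and NE transcription factors, 1 was higher and 1 lower, a share near the 4.87% over all genes, and the median was 0.048. Between 0 and 8 of them were called over the alternatives. The LIM homeodomain factor LHX3 was 31.3, 25.2 and 23.1 CPM without DOX and 35.5, 47.3 and 53.7 CPM with DOX, and rose by 0.78 (SE 0.15, adjusted p = 0.0187). MYT1, a zinc finger factor of neurogenesis, was 56.3, 56.4 and 59.7 CPM against 46.8, 47.9 and 40.0 CPM, and fell by 0.36 (SE 0.085, adjusted p = 0.0358). Among 9 tested endodermal factors edgeR called 0, with 4 at an unadjusted p under 0.05, and DESeq2 called 2. ELF3, the most abundant of them, was 297 ± 4.96 against 353 ± 26.3 CPM (log2 difference 0.25, SE 0.075, adjusted p = 0.0756), and KLF5 was 54.1 ± 2.40 against 54.6 ± 2.38 CPM (0.015, SE 0.075, adjusted p = 0.938).

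**Figure D5:**
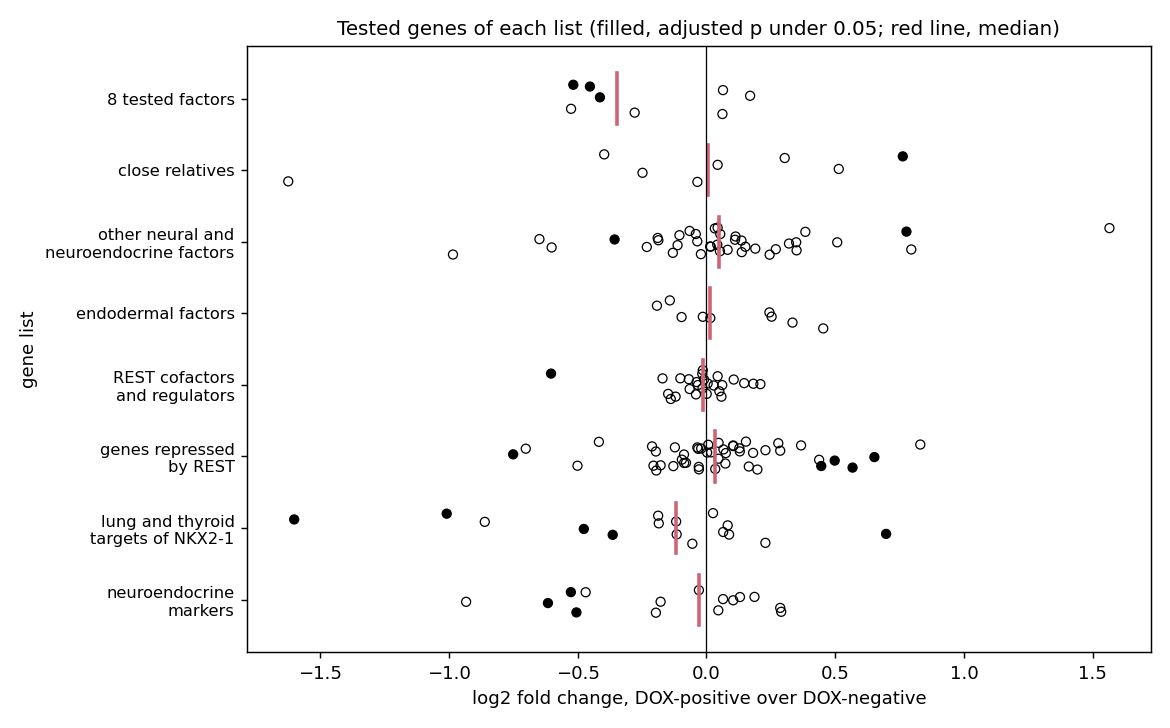
Log2 fold change (x axis, DOX-positive over DOX-negative) of every tested gene in the factors and 7 other lists (y axis), filled for an adjusted p under 0.05, with the median as a red line. The median of the 8 tested factors is -0.35 and those of the 7 other lists drawn lie between -0.12 and 0.048, with points on both sides of 0 in each list drawn. Factors and lists were chosen with earlier results of these data known.

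Markers of cell identity were set beside the factors. Of 15 NE markers edgeR called 3 lower and 0 higher (8 had an unadjusted p under 0.05), beside 1.96% lower and 2.91% higher over all genes. Log2 fold changes of the 15 ran from -0.93 to 0.29, with a median of -0.029. Between 0 and 5 of them were called over the alternatives, with 5 by DESeq2. NCAM1, a neural adhesion molecule, was 186, 217 and 198 CPM without DOX and 156, 145 and 123 CPM with DOX, and fell by 0.50 (SE 0.094, edgeR adjusted p = 0.0142). PCSK2, a prohormone convertase, fell by 0.53 (SE 0.096, adjusted p = 0.0127), and GRP, gastrin-releasing peptide, by 0.62 (SE 0.12, adjusted p = 0.0186). The most abundant NE markers did not pass: UCHL1 had a log2 difference of 0.046 (adjusted p = 0.777, turning to -0.018 when GC and length trends were removed) and CEACAM5 one of 0.29 (adjusted p = 0.133).

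Several stromal, immune and endothelial markers were higher with DOX. Over all tested genes 2.91% were called higher and 1.96% lower. Of 9 fibroblast and stromal markers 5 were tested and 3 called higher, namely LUM (1.06, adjusted p = 0.0297), COL1A1 (0.60, adjusted p = 0.0187) and VIM (0.35, adjusted p = 0.0265), while COL1A2 had a difference of -0.71 (adjusted p = 0.203). The defining markers COL3A1, DCN and PDGFRB had at most 2 counts in any library. The summed level of the list was 10.4 to 13.7 TPM without and 12.2 to 18.7 TPM with DOX, and VIM (mean 10.4 TPM) was its largest part. Of 8 immune and endothelial markers 4 were tested and 3 called higher (VWF 0.97, CDH5 0.94 and CD68 0.78, with adjusted p of 0.0176, 0.0132 and 0.0189). CD14 had a difference of 0.14 (adjusted p = 0.704). The defining endothelial marker PECAM1 had at most 6 counts in any library and was not tested, CD3E was at 0 and PTPRC had at most 1 count. That list summed to 1.01 to 1.37 TPM without and 1.73 to 2.11 TPM with DOX. Of 5 basal markers 3 were tested and ITGB4 rose by 0.58 (adjusted p = 0.0183), while KRT15 had a difference of -0.056 (adjusted p = 0.898), with KRT5 and KRT14 at no more than 1 count and a sum of 0.712 to 1.12 TPM without and 0.984 to 1.28 TPM with DOX. Of 6 tested luminal markers edgeR and DESeq2 called 0, none had an unadjusted p under 0.05, with TMPRSS2 at -0.28 (adjusted p = 0.325) and KRT18 at 0.065 (adjusted p = 0.692), and the sum, nearly all KRT18, was 204 to 278 TPM without and 234 to 307 TPM with DOX. Over the alternatives 0 to 4 stromal, 0 to 3 immune and endothelial and 0 to 1 basal markers were called. The part of these markers in the differences of the factors was not tested.

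GC content was also set beside the changes, since it differed among the factors. The transcripts of INSM1 (63.1% GC), NKX2-1 (60.6%) and FOXA2 (58.2%) are GC-rich, and those of PROX1 (40.7%), ONECUT2 (41.5%) and REST (40.0%) are not. When trends in GC content and length were removed from each library, INSM1 was -0.52 (edgeR adjusted p = 0.0169), NKX2-1 -0.48 (adjusted p = 0.0176) and PROX1 -0.47 (adjusted p = 0.0114). These 3 were again the factors called, and ONECUT2 was at 0.15 (adjusted p = 0.0764).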

How the data were processed

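RNA-seq data from 3 DOX-negative and 3 DOX-positive H660 libraries were used, grouped by sample titles. Per the labels, RNA came from triplicate cultures and libraries were made with a stranded mRNA kit. P values measure only the spread between these samples. Raw counts and TPM, both by gene symbol, were deposited by the authors. The submitters' processing notes name STAR, DESeq2 and GRCh38. Versions, the annotation and the strand setting of the counting are not given in the sources used here. Counts were tested with edgeR 4.0.16 in R 4.3.3 (filterByExpr, TMM factors, robust quasi-likelihood fit, no covariate), with Benjamini-Hochberg adjustment over all 17026 tested genes and a threshold of 0.05. Normalized CPM use TMM factors of 0.967 to 1.03, and the biological coefficient of variation was 9.58%. Chi-square statistics of 16.4 to 101 per degree of freedom set all 6 within-group library pairs apart.

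The members and lists were chosen with earlier results of these data known. Lists were written from general knowledge. Named are all 9 factors, MUC1, up to 4 called genes per list by size of change, the 2 most abundant genes of marker lists and of lists without a call, and the 3 genes nearest to INSM1, POU3F2 and REST (mean of at least 50 counts, log2 CPM with a prior count of 2). Named outside this rule, after their values were seen, are SFTPA2, SFTPB, SFTPC, SFTPD, CHRM4, NEUROG3, FOXA1, POU3F1, POU3F4, LINC00261, PROX1-AS1, SRRM4 and the defining markers given at or near 0 counts. Alternatives were RLE or no scaling, other count filters, DESeq2 1.42.0, limma 3.58.1 (voom, and log2 TPM with pseudocounts of 1 or 0.1), a replicate block and each library left out. Fits with trends in GC content and length removed, from the longest GENCODE v29 transcript (found for 93.0% of tested genes, lowess span 0.3), were added after the data were seen. Intervals and floors cover 95% and counting error, respectively. The fits were tested on simulated counts. Positions are from a RefSeq table of GRCh38.p14.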

Additional observations from a re-analysis of the deposited data

How the results depend on the processing

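Of the factors, 3 were called in the reported fit and with RLE factors, the looser count filter, DESeq2 and trends in GC content and length removed, and 2 with limma-voom or the stricter filter. Without scaling factors 1 was called. limma on log2 TPM called 0 factors in each of 3 forms, with 1, 1 and 0 at an unadjusted p under 0.05 (FOXA2 where it was 1). It called 30, 35 and 0 genes in all (332, 329 and 1248 at an unadjusted p under 0.05). Over all genes DESeq2 called 1354 and the fit without trends in GC content and length 2103, beside 829. Leaving out 1 library gave 0 to 4 factors and 58 to 1035 genes. The lowest counts of factors, 0 and 0, came without DOX-negative replicates 2 and 3, where 127 and 58 genes were called and 3 factors had an unadjusted p under 0.05 in each. The log2 difference of INSM1 to REST was -0.64 to -0.30 with 1 library left out, -0.52 from counts and -0.47 from TPM + 1. The ratio of POU3F3 to POU3F2, and POU3F3 in any fit, gave no value because POU3F3 had no counts.

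Same-numbered libraries did not deviate together (correlations -0.54, 0.019 and -0.10 over 14587 genes), so the numbers do not pair them. With the replicate block 3 factors and 998 genes were called, beside 829 genes without it. The edgeR adjusted p with the block was 0.00571 for INSM1, 0.00183 for PROX1 and 0.0107 for NKX2-1. With the block and trends in GC content and length removed together, 1 factor and 641 genes were called.

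INSM1 was called in 9 of 18 alternatives, NKX2-1 in 7 and PROX1 in 13, with fold changes of -0.52 to -0.32, -0.48 to -0.29 and -0.62 to -0.39 on the log2 scale. Small values turned sign as follows: REST -0.023, NMNAT1 -0.00090 and MAP2 -0.0078 when DOX-positive replicate 3 was left out, KLF5 -0.021 when DOX-negative replicate 3 was and -0.011 when DOX-positive replicate 1 was, KRT15 0.13 and POU3F1 0.085 when DOX-negative replicate 1 was, POU3F1 0.13 when DOX-positive replicate 1 was, and UCHL1 -0.018 without GC and length trends and -0.022 with the block as well. With other libraries left out, these values reached 0.11 for REST, 0.12 for NMNAT1, 0.13 for MAP2, 0.052 for KLF5, -0.16 for KRT15 and -0.22 for POU3F1. Over 965 values of single genes under alternatives, 763 kept direction and side of the threshold, 173 lost and 19 gained a call, and 10 turned sign. The cause of these differences was not tested.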
